A study of Mus musculus with 35 samples.

Results

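The genes described here encode 10 proteins that yolk sac and liver cells secrete into plasma or use to load lipid into particles. They are the apolipoproteins Apoa1, Apoa4, Apob, Apoc2, Apoe and Apom, the plasma carriers Ttr, Rbp4 and Afp, and the lipid transfer protein Mttp. The genes were chosen by name and not by their values, and all 10 were among the 44853 genes of the induction table. Only Apoe, Apom, Mttp and Rbp4, 4 of the 10, were also listed among the 6275 genes of the siRNA table, which was restricted by the authors to genes that respond to GATA6. The other 6 (Apoa1, Apoa4, Apob, Apoc2, Ttr and Afp) were not listed there and were not analysed in the siRNA series. Each of them was nevertheless called here at 168 h of Dox, in a fit of TPM, whereas the authors tested read counts with DESeq2.

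RNA-seq was performed on KH2 ES cells (C57BL/6 x 129/Sv) that carry a GATA6 expression cassette switched on by doxycycline (Dox), a model in which forced GATA6 drives ES cells towards primitive endoderm (PrE). Libraries were made from untreated cells (0 h) and after 16, 24, 48, 72, 96 and 168 h in 1 µg/mL Dox, with 3 libraries per group. The study selected 2 independent inducible clones, and the sample titles do not state which of them gave each of these libraries. XEN cells, represented by 2 libraries of the wild-type line X10 (CD1, no Dox and no cassette), are an extraembryonic endoderm line and differ from the KH2 cells in strain as well as in cell type. In the siRNA series, the inducible cells received a non-targeting siRNA (siCTL) or siRNA against Oct4 (siOct4) together with 1 µg/mL Dox and were collected at 48 h, with 6 libraries each, all from 1 line, #G6.3. All cells were grown on inactivated mouse embryonic fibroblast feeders, with LIF for ES cells and without it for XEN cells, and the feeders were adsorbed before lysis, so that some feeder RNA can remain. Values are TPM, in which reads are divided by gene length and each library is scaled to a total of 1000000, so that levels can be compared between genes.

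The visceral endoderm of the yolk sac feeds the embryo before the liver forms. It takes up maternal lipid and protein, packs lipid onto Apob in the endoplasmic reticulum with the help of Mttp, and secretes the particles along with smaller apolipoproteins and carriers of thyroxine (Ttr), retinol (Rbp4) and other ligands (Afp, the albumin of the fetus). Parietal endoderm, the other derivative of PrE, is known for basement membrane rather than for plasma proteins.

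The 10 genes lie at 8 places in the mm10 genome, and a promoter window was found in RefSeq (GRCm38.p6) for 9 of them, Ttr being the exception. Each window holds 300 bases, 250 before and 50 after the annotated start. The windows below include those of Afp, Apob and Rbp4, 3 of the 6 genes whose group mean was highest at 168 h of Dox. Those of Apoc2, which fell, and of Apoe, the most abundant member, are also shown, as genes that moved differently. Capitals mark matches, on either strand, to 1 of 6 motifs searched: the GATA motif AGATAA, the HNF1 motif GTTAAT, the HNF4 motif CAAAGTCCA, the FOXA motif TGTTTAC, the SOX motif ACAATG and the TATA box TATAAA.
Afp, chr5:90490464-90490763, plus strand: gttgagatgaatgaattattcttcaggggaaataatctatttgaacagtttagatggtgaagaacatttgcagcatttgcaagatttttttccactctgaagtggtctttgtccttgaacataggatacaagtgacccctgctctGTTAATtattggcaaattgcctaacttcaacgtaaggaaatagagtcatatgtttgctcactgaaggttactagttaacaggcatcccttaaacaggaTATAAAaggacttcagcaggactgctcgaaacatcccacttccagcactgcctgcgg
Apob, chr12:7977427-7977726, plus strand: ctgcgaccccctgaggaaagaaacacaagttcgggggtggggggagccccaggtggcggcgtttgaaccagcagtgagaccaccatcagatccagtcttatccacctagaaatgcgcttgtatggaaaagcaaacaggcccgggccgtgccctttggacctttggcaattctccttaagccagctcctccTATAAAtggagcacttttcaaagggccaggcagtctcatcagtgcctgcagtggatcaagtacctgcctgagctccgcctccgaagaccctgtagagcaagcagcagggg
Rbp4, chr19:38124762-38125061, minus strand: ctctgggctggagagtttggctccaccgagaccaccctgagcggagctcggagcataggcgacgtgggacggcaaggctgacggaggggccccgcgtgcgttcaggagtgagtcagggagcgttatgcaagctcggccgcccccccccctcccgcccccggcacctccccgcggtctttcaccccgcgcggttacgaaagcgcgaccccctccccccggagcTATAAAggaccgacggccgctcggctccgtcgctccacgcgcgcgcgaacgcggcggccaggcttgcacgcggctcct
Apoc2, chr7:19677892-19678191, minus strand: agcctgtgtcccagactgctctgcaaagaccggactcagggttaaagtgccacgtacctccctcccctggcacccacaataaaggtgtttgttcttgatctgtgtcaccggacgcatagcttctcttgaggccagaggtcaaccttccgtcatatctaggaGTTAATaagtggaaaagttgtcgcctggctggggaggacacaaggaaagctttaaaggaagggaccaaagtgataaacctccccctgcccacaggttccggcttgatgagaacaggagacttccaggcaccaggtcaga
Apoe, chr7:19699139-19699438, minus strand: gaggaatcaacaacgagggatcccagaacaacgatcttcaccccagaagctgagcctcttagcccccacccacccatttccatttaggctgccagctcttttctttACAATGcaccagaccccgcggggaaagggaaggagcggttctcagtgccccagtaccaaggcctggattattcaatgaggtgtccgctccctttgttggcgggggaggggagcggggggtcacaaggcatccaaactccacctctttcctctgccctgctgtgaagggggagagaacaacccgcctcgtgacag

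The letters AGATAA were found in none of the 12 windows of the 9 genes, against 11.2% of all 32851 mouse promoter windows. Other forms of the GATA motif were not searched, so that a lack of GATA sites cannot be read from this. The HNF4 motif was also in none, against 0.475%. The TATA box stood in the windows above of Afp, Apob and Rbp4, and in 1 of 3 windows of Apoe, where it overlaps a match on the opposite strand. It was present in 13.6% of all windows. The windows of Apoa1 and Apoa4, whose group means were also highest at 168 h, are not shown and held no match to any motif searched. Those of Mttp and Apom held none either. The HNF1 motif stood in Afp and Apoc2 and in another Apoe window, against 7.1% of all windows. The FOXA motif stood in a second Rbp4 window and an Apoe window (3.65% of all), and the SOX motif in the Apoe window shown (12.6% of all). Matches to letters of this kind are descriptions of the sequence, and no motif was tested for use by a factor in these cells.

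The cells were checked against marker genes. Pou5f1, which encodes Oct4, fell from between 1558 and 1833 TPM at 0 h to between 39.1 and 111.9 TPM at 168 h, and all 6 PrE markers examined (Gata4, Gata6, Sox17, Sox7, Pdgfra and Dab2) rose at every Dox time. In each of the 7 groups with 3 libraries, untreated cells included, libraries 1 and 2 lay closer to each other than either did to library 3. The fibroblast gene Thy1 lay between 1.2 and 4.75 TPM in libraries 1 and 2 of these groups and between 13.4 and 34.9 TPM in library 3. The summed level of the 10 fibroblast markers was highest in library 3 in 5 of the 7 groups. It lay between 69.6 and 163.6 TPM at 0 h and between 159.3 and 333.8 TPM at 168 h, when 7 of the 10 were called higher. Of 10 visceral endoderm markers 9 were called higher at 168 h and 1 lower (Slc39a4, from 18.2 to 2.77 TPM), and of 10 parietal markers 10 were higher. Over all genes tested, 22.6% were called higher at 168 h and 16.5% lower. At 168 h, library 3 was also lower for all 10 members, higher for Pou5f1 and lower for Cited1, a visceral endoderm gene (60.6 TPM, against 393.0 and 366.0 TPM). The summed visceral endoderm markers at 168 h were 2508, 2331 and 1834 TPM in libraries 1, 2 and 3, and the summed parietal markers, at 32240, 30860 and 32150 TPM, did not set library 3 apart. Differences of members called higher at 72 h or 168 h against 0 h are therefore given with and without library 3 of both times. The fits without it were chosen after seeing the data and leave libraries 1 and 2 at these times. Their SEs and p-values leave out the spread that library 3 adds and may understate the spread between independent replicates. The part that these other differences have in the members' levels was not tested. In bulk RNA, fewer cells that express a gene and less of its RNA per cell cannot be told apart.

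Apoe dominated the set. It encodes the main apolipoprotein of lipid recycling, made by many cell types, and was already abundant in ES cells. It measured 791.9, 724.9 and 673.8 TPM in the 3 libraries at 0 h, which was 98.6% to 99.2% of the summed level of the 10 genes. Apoe then reached 1462, 1464 and 2086 TPM at 48 h, above every 0 h library, for a ratio of group means of 2.29. The difference of 1.18 on the log2(TPM + 1) scale (SE 0.33) passed the test (limma adjusted p = 0.00495, with a minimum of 1). At this time 9.14% of the 15057 genes tested were called higher and 7.26% lower, and of the 10 members 1 was higher (Apoe) and 1 lower (Apoc2). At 72 h Apoe was 1510, 1579 and 872.4 TPM, and library 3 fell back among the earlier libraries. The difference from 0 h was then 0.81 (SE 0.33, adjusted p = 0.0363), under the minimum of 1, and 1.08 (SE 0.18, adjusted p = 4.1e-05) without the library 3 samples of 72 h and 168 h. Between 72 h and 96 h Apoe fell by 1.12 on the log2 scale (SE 0.33, adjusted p = 0.0271), a step in which 1.04% of genes tested were called lower and 0.671% higher. This call was lost without library 1 or 2 of either time, with differences between -1.39 and -0.96 as single libraries were left out. At 96 h it measured 517.2, 538.5 and 729.5 TPM, within or below the range of untreated cells, and at 168 h 633.0, 792.8 and 225.8 TPM. The difference between 168 h and 0 h, -0.59 (SE 0.33, 95% interval -1.27 to 0.09), did not pass the test, and was -0.04 (SE 0.18) without the 2 library 3 samples.

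Apoc2, the cofactor that lipoprotein lipase needs, moved the other way. It lies on chromosome 7 at 19671579 to 19677941, in the cluster whose other end is Apoe (19696109 to 19699188), so that both genes and their neighbours Apoc4 and Apoc1 fall within 27.6 kb on the minus strand. Apoc2 was low but present in ES cells, at 1.32, 1.42 and 3.58 TPM at 0 h and between 1.15 and 1.60 TPM at 16 h. At 24 h its 3 libraries read 0.213, 0.183 and 0.213 TPM, below every earlier library, and no later library exceeded 0.753 TPM. Apoc2 was listed at 0 in all 3 libraries at 96 h and in both XEN libraries. It was the only member called at 24 h against 0 h, with a difference of -1.30 on the log2(TPM + 1) scale (SE 0.22, adjusted p = 0.000147), when 2.44% of genes tested were called lower and 3.24% higher. The step from 16 h to 24 h gave -1.01 (SE 0.22, adjusted p = 0.0156), when 0.12% of genes were lower and 0.232% higher, and this call was lost without library 1 or 2 of either time. No member was called between 24 h and 48 h, when 3.12% of genes were higher and 2.44% lower. None of the 10 was called at 16 h, when 1.97% of all genes were higher and 0.804% lower. At 168 h Apoc2 read 0.753, 0.538 and 0.193 TPM, and its difference from 0 h of -1.0002 (SE 0.22, adjusted p = 0.000363) sat on the minimum of 1. It was -0.85 without library 3 of 72 h and 168 h. Library 3 at 0 h carried part of these calls. Without it the difference was -0.98 at 24 h and at 48 h, and -0.68 at 168 h, all under the minimum. The fall against 0 h stayed past the minimum at 72 h and 96 h whichever library was left out.

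The genes between Apoe and Apoc2 did not move as a block. Apoc1, a small apolipoprotein that inhibits lipid transfer and sits next to Apoe, was 246.0 ± 12.9 TPM at 0 h and 44.2 TPM at 168 h, where libraries 1, 2 and 3 read 33.5, 50.6 and 48.4 TPM. Library 3 was thus within the range of the others for Apoc1, although it was the lowest for Apoe. Apoc1 fell by 2.47 on the log2 scale at 168 h (SE 0.24, adjusted p = 1.6e-08) and was listed at 0 in both XEN libraries. Apoc4 did not exceed 1.6 TPM in any library.

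**Figure D1:**
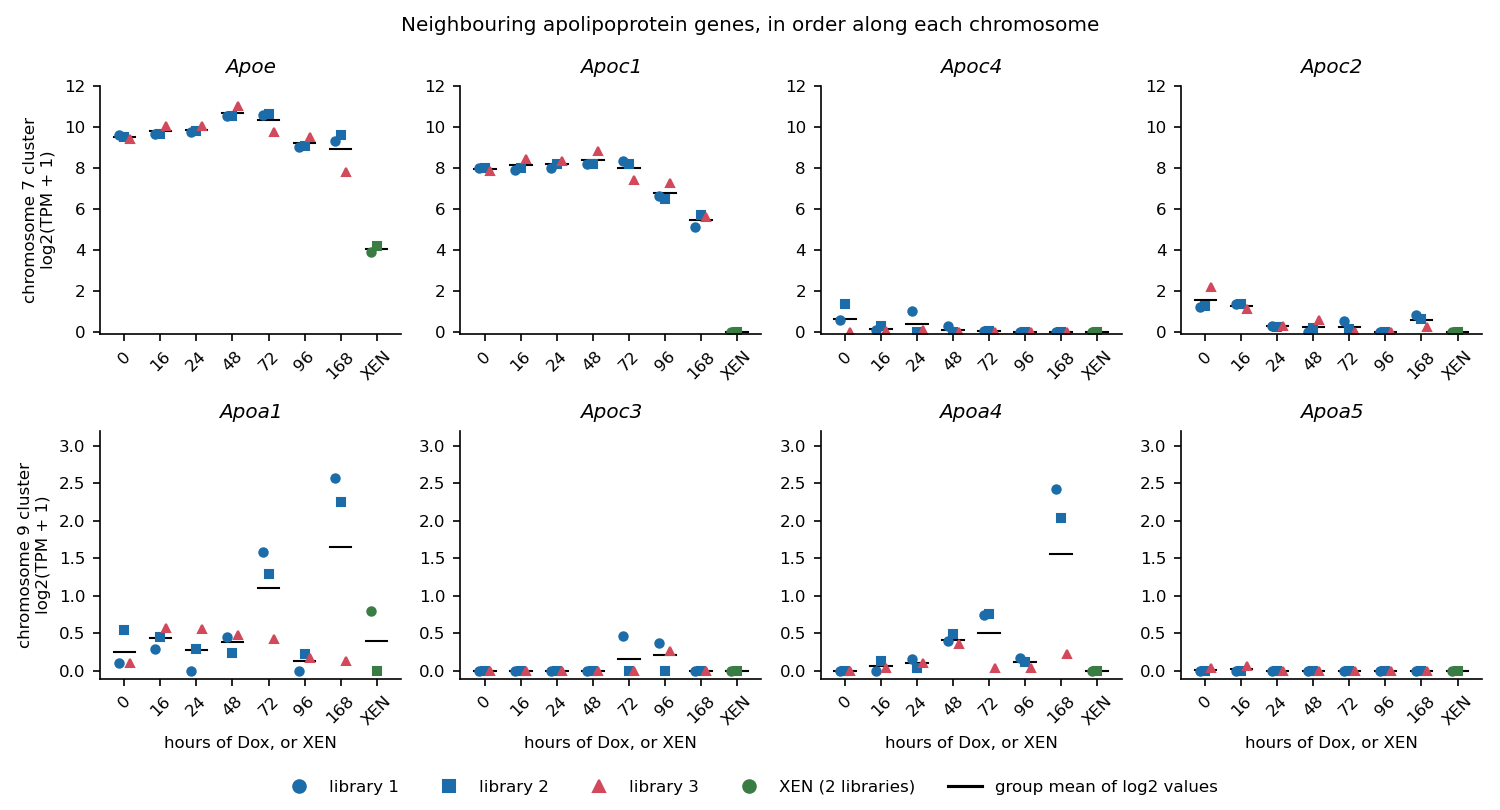
Level of 8 neighbouring apolipoprotein genes as log2(TPM + 1), by hours of Dox and in XEN cells, in order along the chromosome 7 cluster (top, Apoe to Apoc2) and the chromosome 9 cluster (bottom, Apoa1 to Apoa5). Points are single libraries and bars are means of the log2 values; Apoe and Apoc1 stand far above Apoc2 and Apoc4, and on chromosome 9 Apoa1 and Apoa4 are raised at 168 h in libraries 1 and 2 while Apoc3 and Apoa5 remain near 0.

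Apom, the apolipoprotein of high-density lipoprotein that carries sphingosine 1-phosphate, peaked in the middle of the course. Its gene is on chromosome 17 at 35128997 to 35132050. Apom read 0.873, 0.467 and 2.18 TPM at 0 h, between 0.630 and 1.91 TPM at 48 h, and 5.36, 5.77 and 3.19 TPM at 72 h. The 72 h libraries lay above all the other libraries of the induction series. The difference from 0 h was 1.46 on the log2(TPM + 1) scale (SE 0.29, adjusted p = 0.000228), or 1.67 (SE 0.28) without library 3 of 72 h and 168 h, and from 48 h it was 1.47 (SE 0.29, adjusted p = 0.00102), a step in which 1.95% of genes were called higher and 1.38% lower. By 96 h Apom was back to between 1.58 and 2.11 TPM. At 168 h it did not pass the test against 0 h, with a difference of 0.01 (SE 0.29, 95% interval -0.60 to 0.62).

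Mttp, the protein that transfers lipid onto nascent Apob, was called higher at 72, 96 and 168 h. The gene spans 138089854 to 138144968 on chromosome 3. Its level was 2.70, 2.40 and 1.73 TPM at 0 h and stayed in that neighbourhood until 24 h. It was 4.64, 5.05 and 2.99 TPM at 48 h, above every earlier library, but the difference did not reach the minimum of 1. At 72 h the libraries split, with 24.3 and 26.9 TPM in libraries 1 and 2 and 3.72 TPM in library 3. The difference from 0 h was 2.20 (SE 0.52, adjusted p = 0.00112), and 3.03 (SE 0.16, adjusted p = 1.5e-11) without library 3. Along with Mttp, Apom was called higher at 72 h and Apoc2 lower, when 14.7% of genes tested were higher and 11.5% lower. Without library 3, 4 of 10 were higher (Apoa1 and Apoe in addition), against 16.5% of genes. At 96 h the 3 libraries came together, at 8.82, 10.38 and 10.16 TPM, for a difference from 0 h of 1.73 (SE 0.52, adjusted p = 0.00681). Mttp was 1 of 2 members called at 96 h, the other being Apoc2, when 15.4% of genes were higher and 14.1% lower. At 168 h Mttp read 46.9, 43.9 and 9.95 TPM, and the difference from 0 h was 3.14 (SE 0.52, adjusted p = 2.29e-05), and 3.84 (SE 0.16) without library 3. With libraries 1 and 2 of each group averaged, the difference from 0 h was 1.85 at 72 h (adjusted p = 0.0554) and 1.81 at 96 h (adjusted p = 0.0563), and Mttp was called at neither time.

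**Figure D2:**
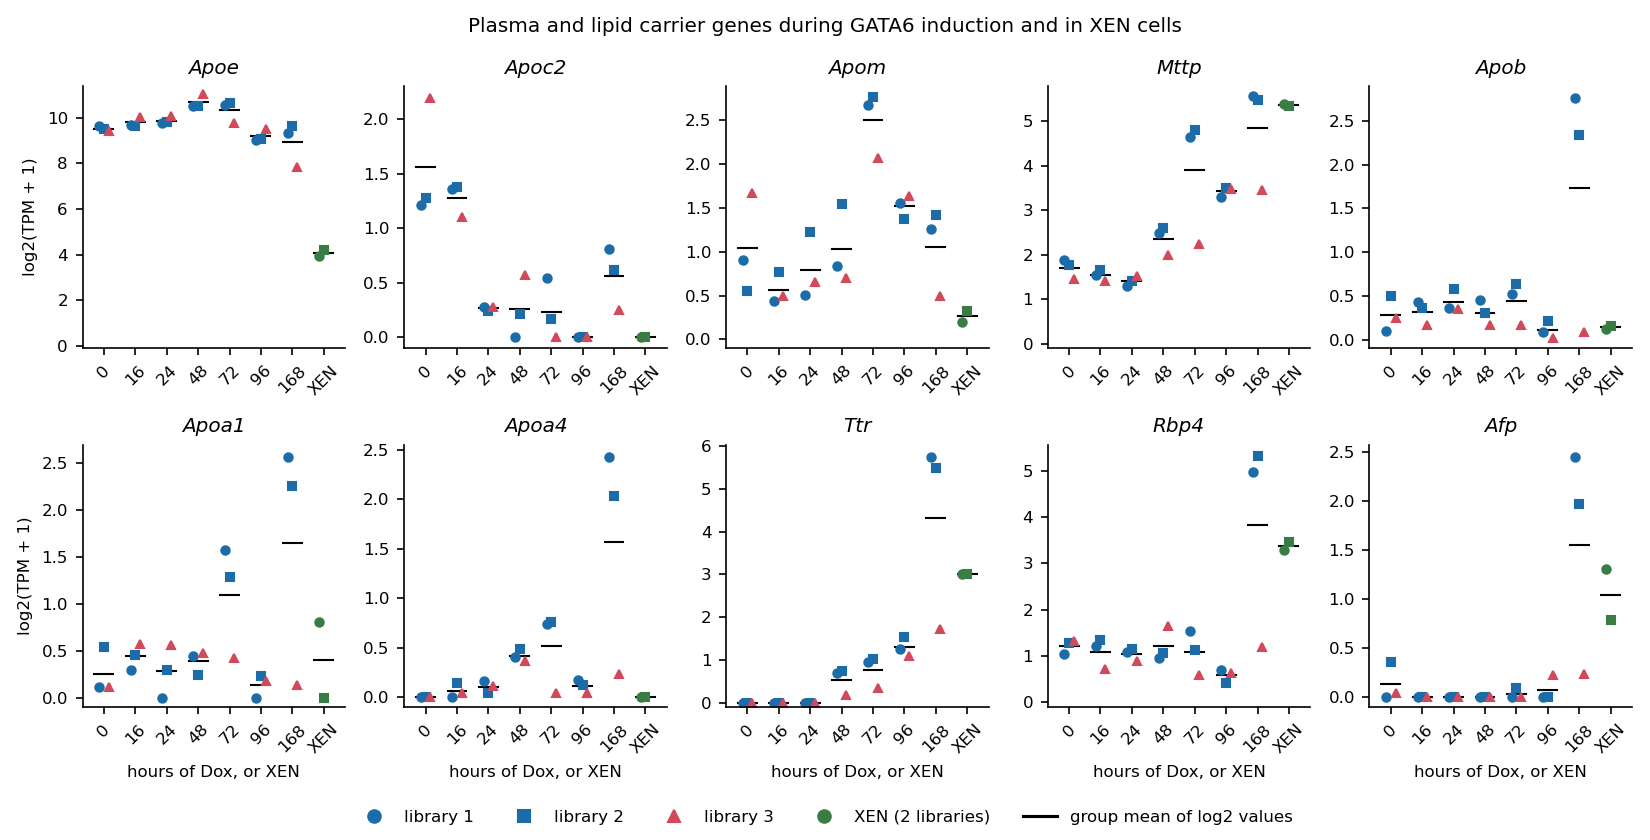
Level of each of the 10 genes as log2(TPM + 1) on the vertical axis, against hours of Dox or XEN on the horizontal axis; each panel has its own scale, points are single libraries and bars are means of the log2 values. Apoe is high throughout the Dox course, Apoc2 is low from 24 h on, Apom peaks at 72 h, and Mttp, Apob, Apoa1, Apoa4, Ttr, Rbp4 and Afp are highest among the Dox libraries in libraries 1 and 2 of 168 h.

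Apob, the large structural protein of the particles that Mttp loads (chromosome 12, 7977648 to 8016835), did not exceed 0.547 TPM in any library up to 96 h. At 168 h it was 5.78 and 4.04 TPM in libraries 1 and 2 and 0.0608 TPM in library 3. The difference from 0 h was 1.45 (SE 0.41, adjusted p = 0.00354), and 2.27 (SE 0.15, adjusted p = 2.61e-10) without library 3. Apob was not called at 72 h or 96 h, and whether its time course differs from that of Mttp was not tested.

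Apoa1 and Apoa4, apolipoproteins of high-density lipoprotein and of newly made particles, lie within 14.9 kb on chromosome 9 (46228580 to 46230466 and 46240696 to 46243459). Apoa1 was 4.93 and 3.78 TPM in libraries 1 and 2 at 168 h and 0.101 TPM in library 3. It had been at 1.99, 1.45 and 0.345 TPM at 72 h and at or below 0.172 TPM at 96 h, so that libraries 1 and 2 were high, low and high again across these times. The difference between 168 h and 0 h was 1.40 (SE 0.43, adjusted p = 0.00639), and 2.16 (SE 0.22) without library 3. The rise of Apoa1 at 72 h did not pass the test with all libraries (0.84, SE 0.43, adjusted p = 0.0917). It was called without library 3 (1.18, SE 0.22, adjusted p = 0.000113), in the fit chosen after seeing the data. Apoa4 was listed at 0 in all 3 libraries at 0 h and read 4.39, 3.10 and 0.172 TPM at 168 h. Its fitted difference on the log2(TPM + 1) scale, which is not a fold change against a group listed at 0, was 1.56 (SE 0.34, adjusted p = 0.000426), and 2.23 (SE 0.12) without library 3. Apoa4 read 0.325, 0.406 and 0.284 TPM at 48 h and was called there and at 72 h with a pseudocount of 0.1 TPM, but not with 1 TPM. Apoc3 and Apoa5, which lie beside them, did not exceed 0.385 and 0.0507 TPM in any library.

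Ttr, which carries thyroxine and holds the retinol carrier Rbp4 in plasma, was listed at 0 in all 9 libraries from 0 to 24 h. Ttr appeared at 48 h, at 0.620, 0.670 and 0.142 TPM, and read 1.38, 1.92 and 1.13 TPM at 96 h. At 168 h it was 52.4 and 44.1 TPM in libraries 1 and 2, where only Apoe was higher among the members, and 2.31 TPM in library 3. Library 3 too lay above all the earlier libraries. The fitted difference between 168 h and 96 h was 3.02 on the log2(TPM + 1) scale (SE 0.63, adjusted p = 0.000748), and that between 168 h and 0 h was 4.32 (SE 0.63, adjusted p = 4.35e-06), or 5.62 (SE 0.15) without library 3.

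Rbp4 had a low level from the start. The gene, on chromosome 19 at 38116629 to 38125281, was at 1.08, 1.42 and 1.51 TPM at 0 h and at 0.629, 0.334 and 0.558 TPM at 96 h, below all the 0 h libraries. It then reached 30.2 and 38.8 TPM in libraries 1 and 2 at 168 h, while library 3 stayed at 1.29 TPM, inside the range of untreated cells. The difference from 0 h was 2.60 (SE 0.65, adjusted p = 0.00137), and 3.92 (SE 0.21, adjusted p = 1.43e-11) without library 3.

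Afp, on chromosome 5 at 90490737 to 90508907 between Alb and Afm, was listed at 0 in all 9 libraries from 16 to 48 h. At 168 h it was 4.48, 2.91 and 0.182 TPM, and its fitted difference from 0 h was 1.42 (SE 0.34, adjusted p = 0.000828), and 2.08 (SE 0.16) without library 3. Alb, its neighbour and the plasma protein that replaces it after birth, did not exceed 0.0708 TPM in any library. Afp was thus detected at a low level and without Alb.

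In all, 7 of the 10 genes were called higher at 168 h (Ttr, Mttp, Rbp4, Apoa4, Apob, Afp and Apoa1) and 1 lower (Apoc2), when 22.6% of genes tested were higher and 16.5% lower. Without library 3 of 72 h and 168 h the same 7 were higher, against 22.0% of genes. Without library 1 of 168 h, Afp, Apoa1 and Apob were lost. With libraries 1 and 2 averaged, Apoa1, Apob and Rbp4 were lost. The median difference of the 10 was 1.43, against 0.09 over all genes tested. All 10 had passed the filter on low values, Apoa4 and Apob only through their level at 168 h, so that the count at 168 h is no support for a rise of the set. In libraries 1 and 2 at 168 h, these 7 genes lay above all 18 libraries of the earlier times. The share of all genes that did so was not counted, so that this too is no support for a rise of the set. For 6 of the 7, Ttr being the exception, library 3 lay within the range of the earlier libraries. Library 3 was lower than the mean of libraries 1 and 2 by at least 1 on the log2 scale for 8 of the 10 members, and for 1.15% of all genes tested. The same 7 were called higher between 96 h and 168 h, a step in which 5.23% of genes were higher and 2.44% lower, and the filter bears on this count in the same way. Those 7 calls were not made when libraries 1 and 2 of each group were averaged, or when only the 96 h and 168 h groups were fitted (0 of 10 in each).

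The 168 h libraries were set beside XEN cells, the established endoderm line (plot of the 168 h and XEN libraries). Against 0 h, XEN cells had 3 members called higher and 2 lower, with 18.9% of genes tested higher and 18.7% lower. Mttp was 40.9 and 39.4 TPM in the 2 XEN libraries, a difference from 0 h of 3.66 (SE 0.59, adjusted p = 1.6e-05). Ttr was 7.02 and 7.10 TPM and Rbp4 8.85 and 9.97 TPM, both between libraries 1 and 2 of 168 h on one side and library 3 on the other. Apob, at 0.0910 and 0.111 TPM, and Apoa4, listed at 0, were at the level of untreated cells, and Afp was 1.48 and 0.728 TPM.

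Apoe was where XEN cells differed most from every Dox time. The XEN libraries read 14.1 and 17.4 TPM, against at least 225.8 TPM in any Dox library. The difference from 168 h was -4.86 on the log2 scale (SE 0.36, adjusted p = 3.91e-09) and that from 0 h was -5.45 (SE 0.36, adjusted p = 1.15e-10). Apob, Apoa4 and Apoa1 were also lower in XEN cells than at 168 h, by 1.59 (SE 0.46, adjusted p = 0.00726), 1.56 (SE 0.38, adjusted p = 0.00232) and 1.25 (SE 0.48, adjusted p = 0.0366) on the log2 scale. None of these 3 calls was made with only the XEN and 168 h groups in the fit (adjusted p = 0.141, 0.0829 and 0.212) or with libraries 1 and 2 averaged (adjusted p = 0.23, 0.144 and 0.417), and that of Apoa1 was also lost without library 1 or 2 of 168 h or library 2 of XEN. In this comparison 9.17% of genes were called lower and 4.73% higher, and 4 of the 10 members were lower and none higher. Apob and Apoa4 had entered the test only through their level at 168 h, so that this count is no support for a lower level of the set. Without library 3 of 72 h and 168 h, 8 of 10 were lower, against 9.18% of genes, the additional genes being Ttr (-2.61, SE 0.17), Rbp4 (-1.76, SE 0.23), Afp (-1.16, SE 0.18) and Apom (-1.07, SE 0.31). With all libraries, Mttp did not pass the test (0.52, SE 0.59, 95% interval -0.71 to 1.75). The summed visceral endoderm markers were 515.9 and 521.5 TPM in XEN cells, under the 1834 to 2508 TPM at 168 h, and 6 of the 10 were called lower. The part of this difference in the members' levels was not tested. Strain and culture without LIF also differ between XEN and KH2 cells and cannot be told apart from cell type.

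**Figure D3:**
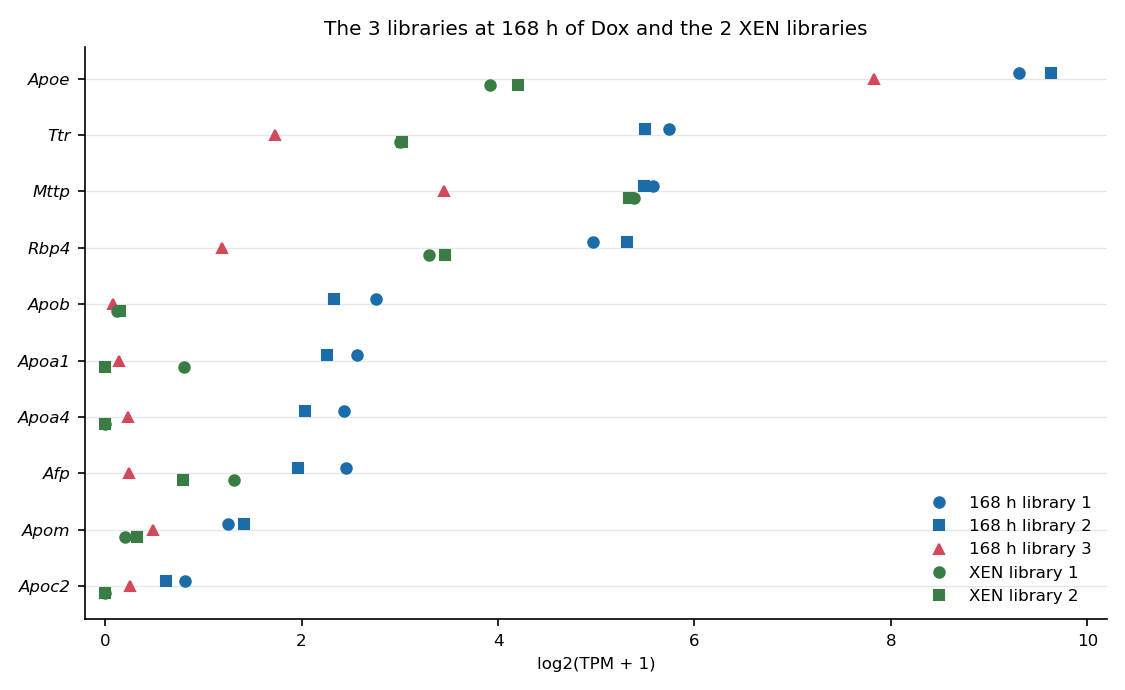
Level of each gene as log2(TPM + 1) on the horizontal axis in the 3 libraries at 168 h of Dox and the 2 XEN libraries, 1 gene per row. Library 3 of 168 h (red triangles) lies below libraries 1 and 2 (blue) for all 10 genes; the XEN libraries (green) are at 14.1 and 17.4 TPM for Apoe and level with libraries 1 and 2 for Mttp.

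**Figure D4:**
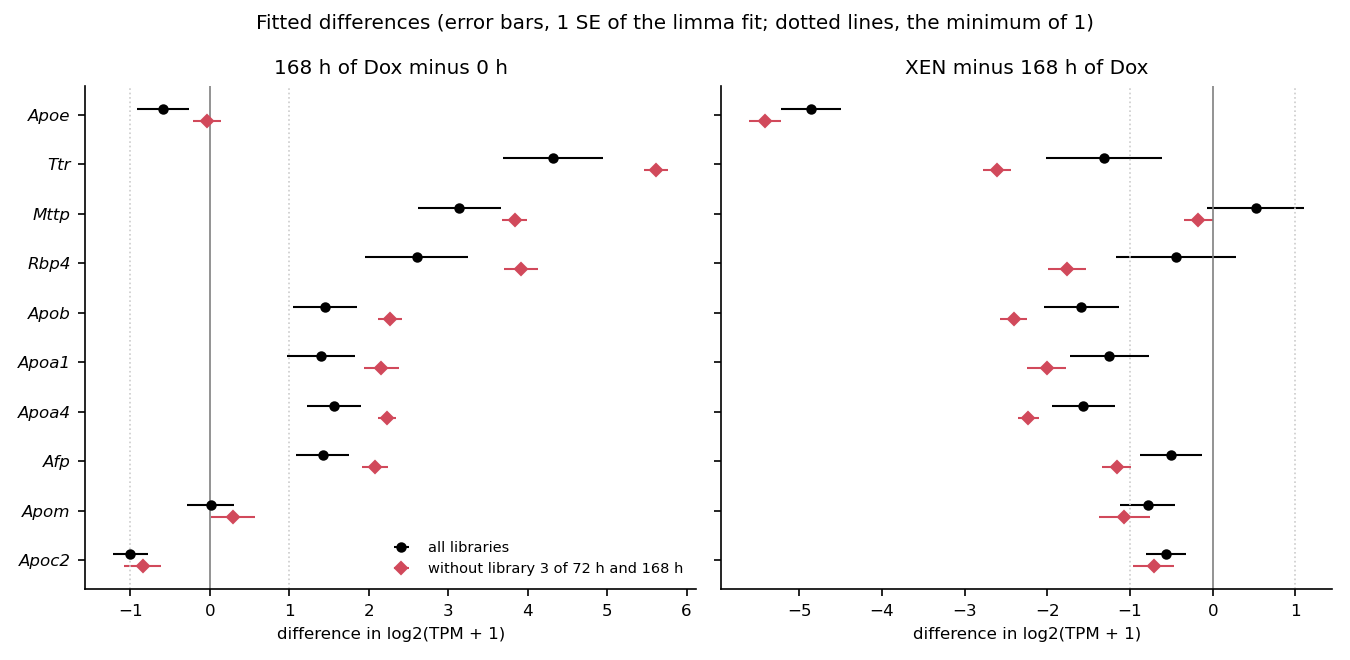
Fitted differences in log2(TPM + 1) between 168 h and 0 h of Dox (left) and between XEN cells and 168 h (right), with all libraries (black) and without library 3 of 72 h and 168 h (red). Error bars are 1 SE of the limma fit. On the left, for the 7 genes that rose, the values without library 3 are farther from 0, up to 5.62 for Ttr. On the right, Mttp turns from 0.52 to -0.17 without library 3.

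Taken as a sum, the 10 genes gave 737.6 ± 57.7 TPM at 0 h, 1679 ± 359 TPM at 48 h, 653.4 ± 365.6 TPM at 168 h (SD, n = 3 each) and 73.3 and 74.9 TPM in the XEN libraries. The sum followed Apoe. The other 9 genes gave 7.42 ± 1.66 TPM at 0 h, and 151.2, 142.8 and 14.7 TPM in libraries 1, 2 and 3 at 168 h. They gave 57.6 and 59.2 TPM in the XEN libraries, of which Mttp was the largest part. Apoe made up between 80.7% and 93.9% of the sum at 168 h and between 19.3% and 23.2% in XEN cells.

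The order of group means by gene showed how far these levels can be ranked. Of the 7 steps between neighbouring group means, the library ranges overlapped in 7 for Apoa1 and Apob, in 6 for Apoa4, Apoc2 and Afp, in 5 for Apoe, Apom, Rbp4 and Mttp, and in 4 for Ttr. For Apoe the order was 48 h, 72 h, 24 h, 16 h, 0 h, 96 h, 168 h and XEN, with separate ranges between 16 h and 0 h and between 168 h and XEN. For Ttr the XEN, 96 h, 72 h and 48 h groups followed 168 h. Its XEN libraries stood clear of 96 h, its 96 h libraries stood clear of 72 h, and its 48 h libraries stood clear of the 0 recorded earlier. For Mttp, XEN, 168 h, 72 h and 96 h overlapped in turn, and 96 h, 48 h and 0 h did not.

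To ask what Oct4 contributes at 48 h of Dox, siOct4 was compared with siCTL. Pou5f1 was lower in all 6 siOct4 libraries, at 281.6 to 386.6 TPM against 781.8 to 1194 TPM, without overlap. Levels were compared only within the siRNA table. Apoe was 280.7, 476.5 and 823.1 TPM in siCTL (lowest, median and highest of 6 libraries) and 116.3, 293.3 and 472.6 TPM in siOct4. The groups overlapped, and Apoe was lower in 5 of 6 pairs of libraries with the same number. Apom was 0.546, 1.68 and 3.79 TPM in siCTL and 0.433, 0.602 and 1.23 TPM in siOct4, lower in 6 of 6 pairs, although in 1 pair by only 0.0031 on the log2 scale. Mttp was 2.41, 3.91 and 5.14 TPM in siCTL and 1.65, 2.65 and 3.84 TPM in siOct4, also lower in 6 of 6. Rbp4 was 0.924, 2.36 and 3.25 TPM in siCTL and 1.00, 1.63 and 2.67 TPM in siOct4, lower in 3 of 6. The summed PrE markers lay between 1014 and 2854 TPM in siCTL and between 514.7 and 1145 TPM in siOct4, and the summed visceral endoderm markers between 1316 and 3366 TPM and between 696.8 and 1294 TPM. The summed fibroblast markers, of which 6 were listed, also differed between libraries of the same number, with 195.0 TPM in siCTL and 66.9 TPM in siOct4 for number 1, 181.4 and 62.5 TPM for number 2, 31.1 and 40.6 TPM for number 3, 217.1 and 32.95 TPM for number 4, 41.7 and 219.1 TPM for number 5, and 49.9 and 198.0 TPM for number 6. They were higher in siCTL for 3 numbers and in siOct4 for the other 3. The part of these markers in the members' levels was not tested.

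None of these 4 genes was called without the block, when 1.72% of the 6264 genes tested were lower and 0.942% higher at a minimum of 0.5. The differences were -0.87 for Apoe (SE 0.35, adjusted p = 0.262), -0.78 for Apom (SE 0.27, adjusted p = 0.170), -0.45 for Mttp (SE 0.21, adjusted p = 0.363) and -0.18 for Rbp4 (SE 0.25, adjusted p = 0.816). When replicate number was added as a block, Apoe (SE 0.20, adjusted p = 0.0223) and Apom (SE 0.21, adjusted p = 0.0430) were called lower at the same differences. Mttp (adjusted p = 0.113) and Rbp4 (adjusted p = 0.609) were not. In that fit 6.15% of all genes tested were called lower. Libraries 1 and 2, and 5 and 6, lay close to each other (distance 0.273 to 0.504, the root mean square log2 difference), as did siOct4 libraries 3 and 4 (0.444) but not siCTL libraries 3 and 4 (1.06). With consecutive libraries averaged to 3 per group, the blocked fit called none of the 4 (adjusted p = 0.160 for Apoe and 0.146 for Apom). Without the libraries numbered 3 and 4, the difference of Apom was -0.42 (SE 0.24). The calls of Apoe and Apom were made in the blocked fit of all 12 libraries and not in the fit without the block.

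**Figure D5:**
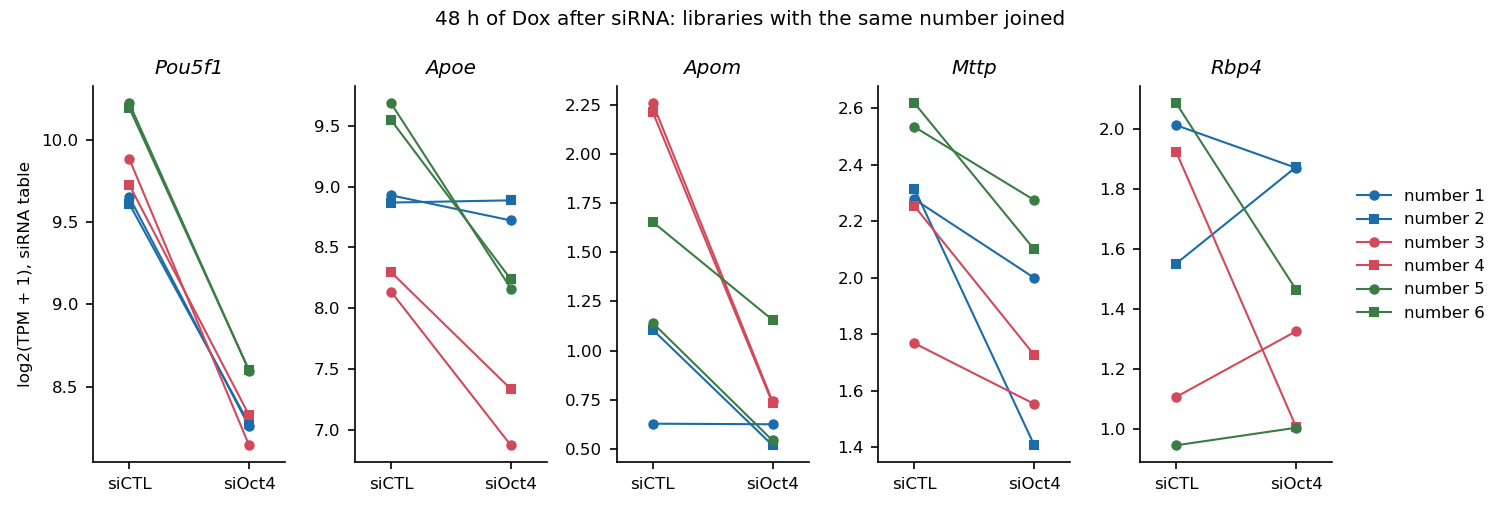
Level of Pou5f1 and of the 4 listed members as log2(TPM + 1) in siCTL and siOct4 libraries after 48 h of Dox, with libraries of the same number joined and consecutive numbers in 1 color; each panel has its own scale. Pou5f1 is lower in all 6 pairs without overlap, Apoe in 5, Apom and Mttp in 6 and Rbp4 in 3, with overlap between the groups.

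The machinery around these proteins was followed with gene lists. Of 11 genes of lipoprotein assembly and secretion other than Mttp, 5 were called higher and 1 lower at 168 h (22.6% and 16.5% of all genes tested). P4hb, the partner subunit of Mttp, was 173.0 ± 19.3 TPM at 0 h and 1750 TPM at 168 h (3.34, SE 0.10, adjusted p = 6.5e-16), and it was called from 48 h (1.99, SE 0.10). Surf4, the cargo receptor that moves lipoproteins out of the endoplasmic reticulum, was also called at 48 h (2.23, SE 0.09) and at 168 h (3.38, SE 0.09). Sar1b and Mia3, which help form the carriers that leave the endoplasmic reticulum, rose by 1.67 (SE 0.07) and 1.57 (SE 0.10) at 168 h. Soat2, which esterifies cholesterol for the particle core, was the fifth. Apobec1, the enzyme that edits Apob mRNA, fell from 7.38 to 0.542 TPM (-2.45, SE 0.21, adjusted p = 2.1e-09).

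At 168 h, 5 of 10 receptors and efflux genes were called higher and 1 lower (22.6% and 16.5% of all genes), with a median of 1.89 against 0.09 over all genes. The endocytic receptor genes Cubn, Lrp2 and Amn rose by 8.14 (SE 0.27), 5.98 (SE 0.31) and 4.93 (SE 0.23). Vldlr, a receptor for Apoe-bearing particles, rose by 3.68 (SE 0.43), and Abca1, which loads lipid onto Apoa1, by 3.34 (SE 0.12). In XEN cells 6 of the 10 were lower than at 168 h and none higher (9.17% and 4.73% of all genes). With siOct4, Cubn and Amn were lower (2 of 8 tested, against 1.72% of all genes; Cubn -2.55, SE 0.46, adjusted p = 0.0064). In the remodelling list of 6, 4 were tested. Lipg, an endothelial-type lipase, and Pltp were higher at 168 h and none lower (22.6% and 16.5% of all genes). Lpl, the lipase activated by Apoc2, was 1.12 TPM at 168 h and 22.7 TPM in XEN cells (3.49, SE 0.14, adjusted p = 3.2e-13). Of 8 further exchangeable apolipoproteins 4 were tested. Apoa2, Apoc1 and Apod were lower at 168 h and none higher (16.5% and 22.6% of all genes). Apoa2, an apolipoprotein of high-density lipoprotein, fell from 26.4 to 1.51 TPM (-3.44, SE 0.27, adjusted p = 9.8e-10), the reverse of its partner Apoa1.

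Of 20 other plasma protein genes only 5 passed the filter. At 168 h 1 was higher (F2, prothrombin, 1.64, SE 0.38) and 3 lower (Trf, Gc and Fetub), against 22.6% and 16.5% of all genes. Trf, the iron carrier transferrin, was 13.7 TPM at 0 h and 0.619 TPM at 168 h. The defining hepatocyte genes Alb, Cps1, Cyp2e1, Tat and G6pc did not exceed 0.112 TPM in any library. Apoa2, the sixth gene of the hepatocyte list, reached 34.7 TPM, its highest level being at 0 h. Among the 7 genes of retinol and thyroxine handling, Stra6, the cell surface receptor for Rbp4, rose from 0.0542 TPM at 0 h to 94.4 TPM at 168 h (6.49, SE 0.23) and was 233.0 TPM in XEN cells. Stra6 read 111.0, 82.8 and 89.6 TPM at 168 h and so did not share the low value of Rbp4 in library 3. Rdh10, which makes retinal, also rose. Of 14 tested endoderm and liver transcription factors, 9 were higher and 1 lower at 48 h (9.14% and 7.26% of all genes), and 9 were higher and 1 lower at 168 h (22.6% and 16.5%). Hnf4a was 16.8 TPM at 48 h and 7.94 TPM at 168 h, while Foxa2 was 16.3 to 26.2 TPM at 48 h and 90.1 to 115.0 TPM at 168 h. Both were called higher at 48 h. Nr5a2, of the same list, was called lower at 48 h and went from 25.8 TPM at 0 h to 0.369 TPM at 168 h. Whether any of these factors acts on the members was not tested.

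The genes most like each member were sought among 7055 genes over the 23 induction libraries, by Pearson correlation of log2(TPM + 1), as a description of libraries that share time points. Apoe was nearest to Grb7 (r = 0.971), Hps1 (0.966) and Rbm47 (0.964), all low in XEN cells. Mttp was nearest to Rnaset2a (0.968), Vps37a (0.962) and Ufsp2 (0.961). Afp was nearest to Rbp4 (0.944) and Ttr (0.937), and Rbp4 to Ttr (0.894). Ttr was nearest to the noradrenaline transporter Slc6a2 (0.936), which was 0.0169 TPM at 0 h and 5.54 TPM at 168 h, and to Me2, malic enzyme (0.935). Me2 was also among the 3 nearest genes of Apoa1, Apoa4 and Rbp4. Apoa1 and Apoa4 correlated at 0.91 and Apoa4 and Apob at 0.95. Apoc2 was nearest to Hmces (0.864), and Apom to Gm44732 (0.843). Apoe and Apoc2, although neighbours, correlated at 0.24.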

How the data were processed

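Per the labels and the study's methods, polyA RNA was sequenced from stranded paired-end libraries, reads were trimmed with cutadapt and aligned to mm10 with STAR, and genes were quantified with RSEM. The authors deposited TPM, computed after outliers in a principal component analysis had been omitted, and what these outliers were is not given in the sources used here. Versions and annotation are not given in the sources used here. Columns of the induction table summed to 1000000 TPM, and those of the siRNA table, limited to 6275 genes, to between 274527 and 355895. Values lay on a grid of about 0.0101 (induction) and 0.0111 to 0.0116 TPM (siRNA), which is rounding and not reads, so that depth is unknown and the tables were not tested against each other. The text columns of the authors' gene classes and siOct4 effects, and their group means, were not used.

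Groups and replicate numbers came from the sample titles. The study states independent replicates, but libraries 1 and 2 resembled each other in every Dox group, so that p-values measure the spread between these libraries, which may in part be technical. Where a symbol had several rows the one with the highest mean was kept (62 rows dropped). log2(TPM + 1) was fitted with limma 3.58.1 in R 4.3.3 (lmFit, eBayes with trend and robust) over all 23 induction or 12 siRNA libraries, after removal of genes whose mean stayed below 1 TPM in all groups (15057 and 6264 were left). Benjamini-Hochberg adjustment was made over all genes tested. A gene was called at an adjusted p-value under 0.05 and a difference above 1 (induction) or 0.5 (siRNA). The scale understates the change of low genes. The fits were tested on simulated data.

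In the siRNA series deviations from the group mean correlated in all 6 pairs with the same number (r from 0.24 to 0.71, mean 0.33). Pairs with different numbers had a mean of -0.06 but reached 0.46, and 10 of 30 were over 0.1. The numbers may thus pair the libraries, which the titles do not state, and blocked values are given where they change a call. In the induction series the mean was 0.03. Named were the 10 members, the genes of pathway and marker lists and, for each member, the 3 genes with the highest correlation among genes that reached a group mean of 5 TPM with a range of group means of at least 1 on the log2 scale. The members and lists were chosen with earlier results of these data known. Gene positions came from GENCODE M21 (mm10), promoter windows from RefSeq. Alternatives were median-of-ratios rescaling, other filters, pseudocounts and thresholds, the replicate block, fits of the compared groups only and each library left out. Fits without library 3 of 72 h and 168 h, without siRNA libraries 3 and 4, and with libraries of consecutive numbers averaged were chosen after seeing the data.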

Additional observations from a re-analysis of the deposited data

Results flagged for a closer look

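The screen covered the 4 members of the siRNA table in the siCTL and siOct4 groups, 8 sets of 6 values, and about 1 set in 20 would be marked by chance. It marked 1 value. Apom in siOct4 had its highest library, number 6, at 1.23 TPM, while the other 5 lay between 0.433 and 0.672 TPM. On the log2(TPM + 1) scale the gap to the nearest library was 0.65 of the whole range of the group, above the limit for 6 samples. The siCTL library with the same number was at 2.15 TPM. Groups of 3 libraries, which include library 3 at 168 h, were too small for this screen.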

How the results depend on the processing

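The counts of called members depended on the low values of most of these genes. Median-of-ratios rescaling changed no count by more than 1.5 times and moved no summed level by more than its SD. The replicate block changed only the siRNA count, from 0 to 2. It left the count of every induction comparison as it was. A filter of 5 TPM tested 4 members, and the counts became 0 at 24 h, 1 at 48, 72 and 96 h and 3 at 168 h against 0 h, 1 for XEN against 168 h, and 0, 1 and 3 for the steps to 24, 72 and 168 h. A pseudocount of 0.1 gave 4 at 48 h and 5 at 72 h against 0 h, 0 for the step to 24 h and 1 for the step to 48 h. Fits of the compared groups only gave 5 at 168 h against 0 h (Apoa1, Apob and Rbp4 were lost), 1 for XEN against 168 h, and 1, 0 and 0 for the steps to 72, 96 and 168 h. Without a filter there were 2 for XEN against 168 h and 0, 1 and 0 for the steps to 24, 72 and 96 h. An adjusted p under 0.01 gave 0, 1 and 0 for the same steps, and no fold minimum gave 2 for the step to 96 h. With libraries 1 and 2 averaged, which leaves XEN with 1 sample assumed to vary like the other groups, the counts were 1 at 96 h (Mttp was lost there and at 72 h) and 5 at 168 h against 0 h, 1 for XEN against 168 h, and 0, 1, 0 and 0 for the steps to 24, 72, 96 and 168 h. Without library 3 of 72 h and 168 h they were 5 at 72 h against 0 h, 8 for XEN against 168 h and 4 for the step to 96 h, and Mttp in XEN against 168 h turned to -0.17. Rbp4 in that comparison turned to 0.21 with libraries 1 and 2 averaged. With each library left out in turn, the counts ranged from 0 to 1 at 24 h (0 without library 3 of 0 h), 1 to 2 at 48 h, 3 to 5 at 72 h and 5 to 8 at 168 h against 0 h (5 without library 1 of 168 h, when Afp, Apoa1 and Apob were lost), 3 to 8 for XEN against 168 h, and 0 to 1, 1 to 2 and 0 to 4 for the steps to 24, 72 and 96 h. In XEN against 168 h the difference of Mttp then ranged from -0.17 to 0.89 and that of Rbp4 from -1.76 to 0.30. Other than through fewer genes or libraries, the cause was not tested. Depth is unknown, and values under 1 TPM carry the largest rounding.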
